A study of Homo sapiens with 26 samples.

Results

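Binding of the estrogen receptor (ER) and the progesterone receptor (PR) was examined at 8 genes long used as readouts of estrogen action: GREB1, NRIP1, TFF1, IGFBP4, CXCL12, CTSD, XBP1 and SIAH2. The members were the called sites of any of 10 deposited lists that overlapped the hg19 span of one of these genes or the 50 kb on either side of it. They numbered 129 of the 87206 sites of all lists, in windows of 104 to 209 kb that cover 1.09 Mb in all. The sites come from ChIP-seq, in which DNA bound by a protein is pulled down with an antibody and sequenced. The cells were T47D, a long-established line of human breast cancer cells labelled ER+/PR+, and PR-deficient T47D cells. Cells kept without steroids for 48 h were exposed for 45 min to vehicle, to 10 nM of the estrogen estradiol (E2), to 10 nM of the progestin R5020, or to both at 10 nM. In T47D cells an ER list and a PR list were available for E2, for R5020 and for E2+R5020, together with a list from a sequential ER and then PR precipitation (reChIP) for E2+R5020. In PR-deficient cells an ER list was available for the same 3 treatments. The sources used here do not give how PR was removed or whether these cells were 1 clone. Each list came from 1 library, so no value below has a replicate error and no test between treatments or lines was made.

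ER and PR are nuclear receptors that bind DNA once their steroid ligand is present, ER at palindromes of GGTCA spaced by 3 bases and PR at a related element. In breast cancer cells much of ER binding lies at enhancers away from gene starts, and the 8 genes here were picked out in earlier work for their response to estrogen. They fall into 3 roles. GREB1 and NRIP1 encode partners of nuclear receptors, NRIP1 being a corepressor. TFF1, IGFBP4 and CXCL12 encode secreted proteins: a trefoil peptide, a binder of insulin-like growth factors and a chemokine. CTSD encodes the lysosomal protease cathepsin D, XBP1 a transcription factor of the unfolded protein response and SIAH2 a ubiquitin ligase.

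Per the labels, the authors took out vehicle signal from each list, and IgG signal too from that of the reChIP, so a place without a site is one that was not called above vehicle, which differs from a place without receptor. Read depth is unknown. The score of a site is the authors' own value in a unit that was not stated, so it is used here only as a rank within its list, with tied sites sharing the best rank. The lists differ in site width, from a median of 149 bp (PR with R5020) to 1329 bp (ER with E2+R5020 in PR-deficient cells). Wide sites overlap others more easily. The labels give 1 vehicle library for each line and antibody, so lists of 1 line and antibody appear to share it. Distances below run from the gene start given by the span and strand to the centre of a site, and negative values lie upstream.

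The promoters of CTSD, IGFBP4 and SIAH2 are shown because an ER site of PR-deficient cells lay across each of these starts and RefSeq gives 1 start for each in the table used here. Each runs 5′ to 3′ on the strand of the gene, from 250 bases before to 50 after the RefSeq start of GRCh38.p14, and 6 of the 8 genes were found in that table. The overlap with a site was tested at the start given by the hg19 span, and whether the 2 starts match was not compared. For SIAH2 the span is 22351 bp in hg19 and 22045 bp in GRCh38, so its printed stretch may not be the one tested. Capitals mark each GGTCA (1 arm of the ER element, or TGACC on the other strand) and each GGGCGG (the GC box, or CCGCCC on the other strand, where neighbouring matches overlap or touch).
CTSD: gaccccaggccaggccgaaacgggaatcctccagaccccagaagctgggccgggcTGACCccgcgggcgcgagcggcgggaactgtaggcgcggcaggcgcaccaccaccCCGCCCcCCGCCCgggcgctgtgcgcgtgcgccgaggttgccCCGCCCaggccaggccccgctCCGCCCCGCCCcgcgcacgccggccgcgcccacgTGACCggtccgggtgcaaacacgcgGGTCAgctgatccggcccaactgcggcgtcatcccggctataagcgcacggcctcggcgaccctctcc
IGFBP4: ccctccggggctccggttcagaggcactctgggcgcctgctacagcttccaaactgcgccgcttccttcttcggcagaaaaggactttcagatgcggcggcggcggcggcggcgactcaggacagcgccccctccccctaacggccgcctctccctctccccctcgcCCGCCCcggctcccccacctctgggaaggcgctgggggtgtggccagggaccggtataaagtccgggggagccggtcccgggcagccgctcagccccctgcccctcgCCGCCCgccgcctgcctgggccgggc
SIAH2: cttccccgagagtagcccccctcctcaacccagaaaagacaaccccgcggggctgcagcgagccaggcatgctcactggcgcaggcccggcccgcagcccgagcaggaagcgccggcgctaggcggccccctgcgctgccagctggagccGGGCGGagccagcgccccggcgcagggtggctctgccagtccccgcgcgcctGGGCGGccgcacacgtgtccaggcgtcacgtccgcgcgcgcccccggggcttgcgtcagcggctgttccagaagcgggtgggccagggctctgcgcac

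The CTSD promoter held 3 GGTCA arms, the first base of each at -195, -43 and -18, and 5 GC boxes. The promoters of IGFBP4 and SIAH2 held 0 such arms and 2 GC boxes each. An arm occurred in 37.4% of the 35116 RefSeq promoters of this length and a GC box in 45.0%. All 9 promoters listed for the 6 matched genes (3 starts for NRIP1 and 2 for XBP1) held a GC box and 5 held an arm. None of the 9 held the full palindrome of the estrogen response element, found in 0.057% of all promoters, the full progesterone response element (0.39%), its core ACANNNTGT (5.37%), the forkhead motif TGTTTAC (3.42%) or the AP-1 motif TGANTCA (7.71%), searched on both strands. The 3 promoters shown were 77.3% (CTSD), 76.0% (SIAH2) and 74.0% (IGFBP4) G and C, against a median of 58.7% over all promoters. The promoters of GREB1 and TFF1 were not in that set and were not searched. Sequence at the called sites away from starts was not analysed here.

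ER lists of E2 put sites at most of these genes, and lists of R5020 alone put few there. With E2, the T47D ER list held 18 member sites at 6 of the 8 genes, against 10.9% of all bins of 115 kb (the median window) that held a site of that list. The ER list of E2 in PR-deficient cells held 25 at 7 genes (17.8% of bins), and that of E2+R5020 held 16 at 7 genes (14.4%). The T47D ER list of E2+R5020, the longest of all, held 20 at 8 genes (38.2%). With R5020 alone, the ER lists held 4 sites at 3 genes in T47D (10.7%) and 2 sites at 2 genes in PR-deficient cells (15.7%). The PR list of E2+R5020 held 20 sites at 6 genes (21% of bins), that of R5020 5 sites at 4 genes (13.1%) and that of E2 3 sites at 2 genes (17.4%). The reChIP list held 16 sites at 8 genes (17%). Without GREB1, the PR list of E2+R5020 held 9 sites and the T47D ER list of R5020 held 2. The windows of GREB1 (208673 bp) and NRIP1 (203571 bp) are much longer than these bins. Those of SIAH2 (122351 bp) and CXCL12 (114946 bp) are slightly longer. Of bins of 209 kb, the longest window, 16.2 to 55.6% held a site, depending on the list.

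**Figure D1:**
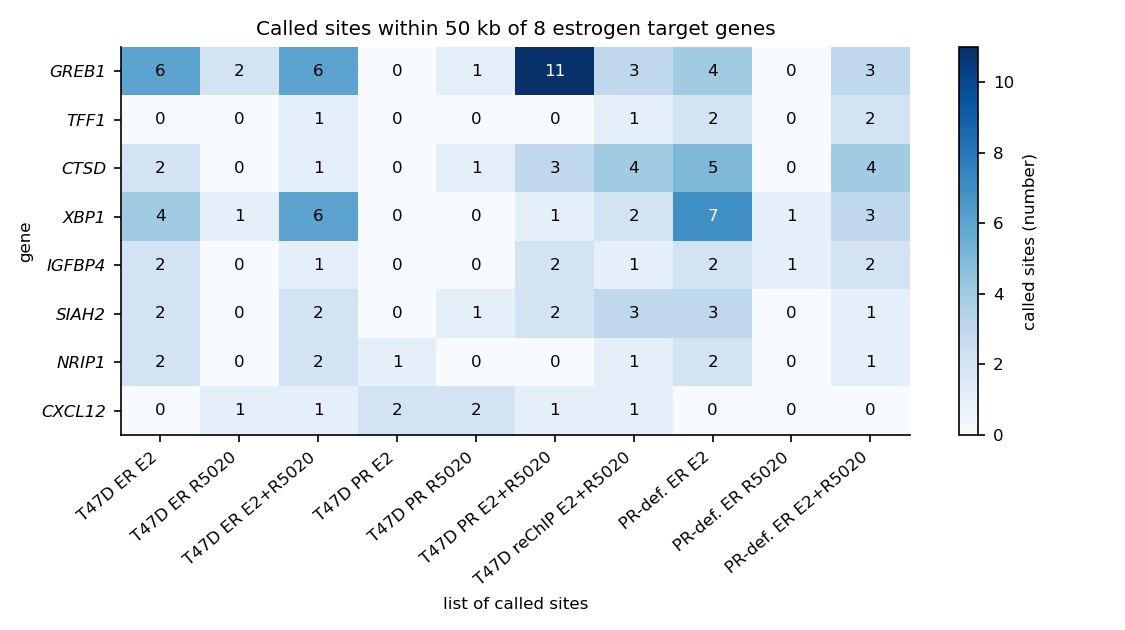
Number of called sites within 50 kb of each gene (rows) in each list (columns), with the number printed in each cell and shade rising with it. GREB1 holds 11 sites in the PR list of E2+R5020 and XBP1 holds 7 in the PR-deficient ER list of E2, while CXCL12 holds 0 in all 3 PR-deficient lists.

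Relative to the length of each list, the windows were densest in sites of 3 ER lists that included E2. The T47D ER list of E2 had 16.6 sites per Mb in the windows against 1.33 per Mb over the 3009 Mb spanned by all sites, a ratio of 12.4. The ratio was 8.95 for E2 and 7.83 for E2+R5020 in PR-deficient cells. It was 4.66 for PR with E2+R5020, 4.5 for the reChIP, 2.89 for T47D ER with E2+R5020, 2.18 for PR with R5020 and 2.08 for T47D ER with R5020. For PR with E2 it was 1.04 and for PR-deficient ER with R5020 it was 0.607, each on 3 sites or fewer. The 3 highest ratios thus belonged to the 3 ER lists of wide sites that included E2. The 3009 Mb are not limited to the surroundings of genes, as the windows are. Of their 26266 bins of 115 kb, 16123 held a site of any list. Ratios against windows around other genes were not computed.

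Most sites lay away from the starts of the 8 genes. Of the 129 sites, 57 lay upstream of a span, 41 inside it without touching the start, 23 downstream and 8 across the 250 bases before to 50 after a start. All 8 of the last kind belonged to PR-deficient cells: 5 with E2+R5020, at TFF1, CTSD, IGFBP4, SIAH2 and NRIP1, and 3 with E2, at IGFBP4, SIAH2 and NRIP1. The 7 T47D lists and the PR-deficient R5020 list held 0 sites across a start. The stretch tested is a small part of each window, so most sites would lie away from it by length alone. The number of sites across it expected from its length and the site widths was not computed. The share of each whole list that lies across gene starts was not counted. Whether the difference between the lines is particular to these genes is therefore not known. These sites were wide, 857 to 2625 bp, and ranked between 20.1 and 73.3% down their lists, so that 0 of the 8 reached the highest-scoring 10% of their list. At NRIP1 the T47D ER list of E2+R5020 held a site of 377 bp at -0.7 kb (rank 17387 of 19220) inside the wide PR-deficient sites, just outside that stretch. At GREB1 the PR list of E2+R5020 held one of 247 bp at 0.4 kb (rank 7412 of 11908). Each line has its own vehicle library, and its part in this difference cannot be told apart from that of PR.

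**Figure D2:**
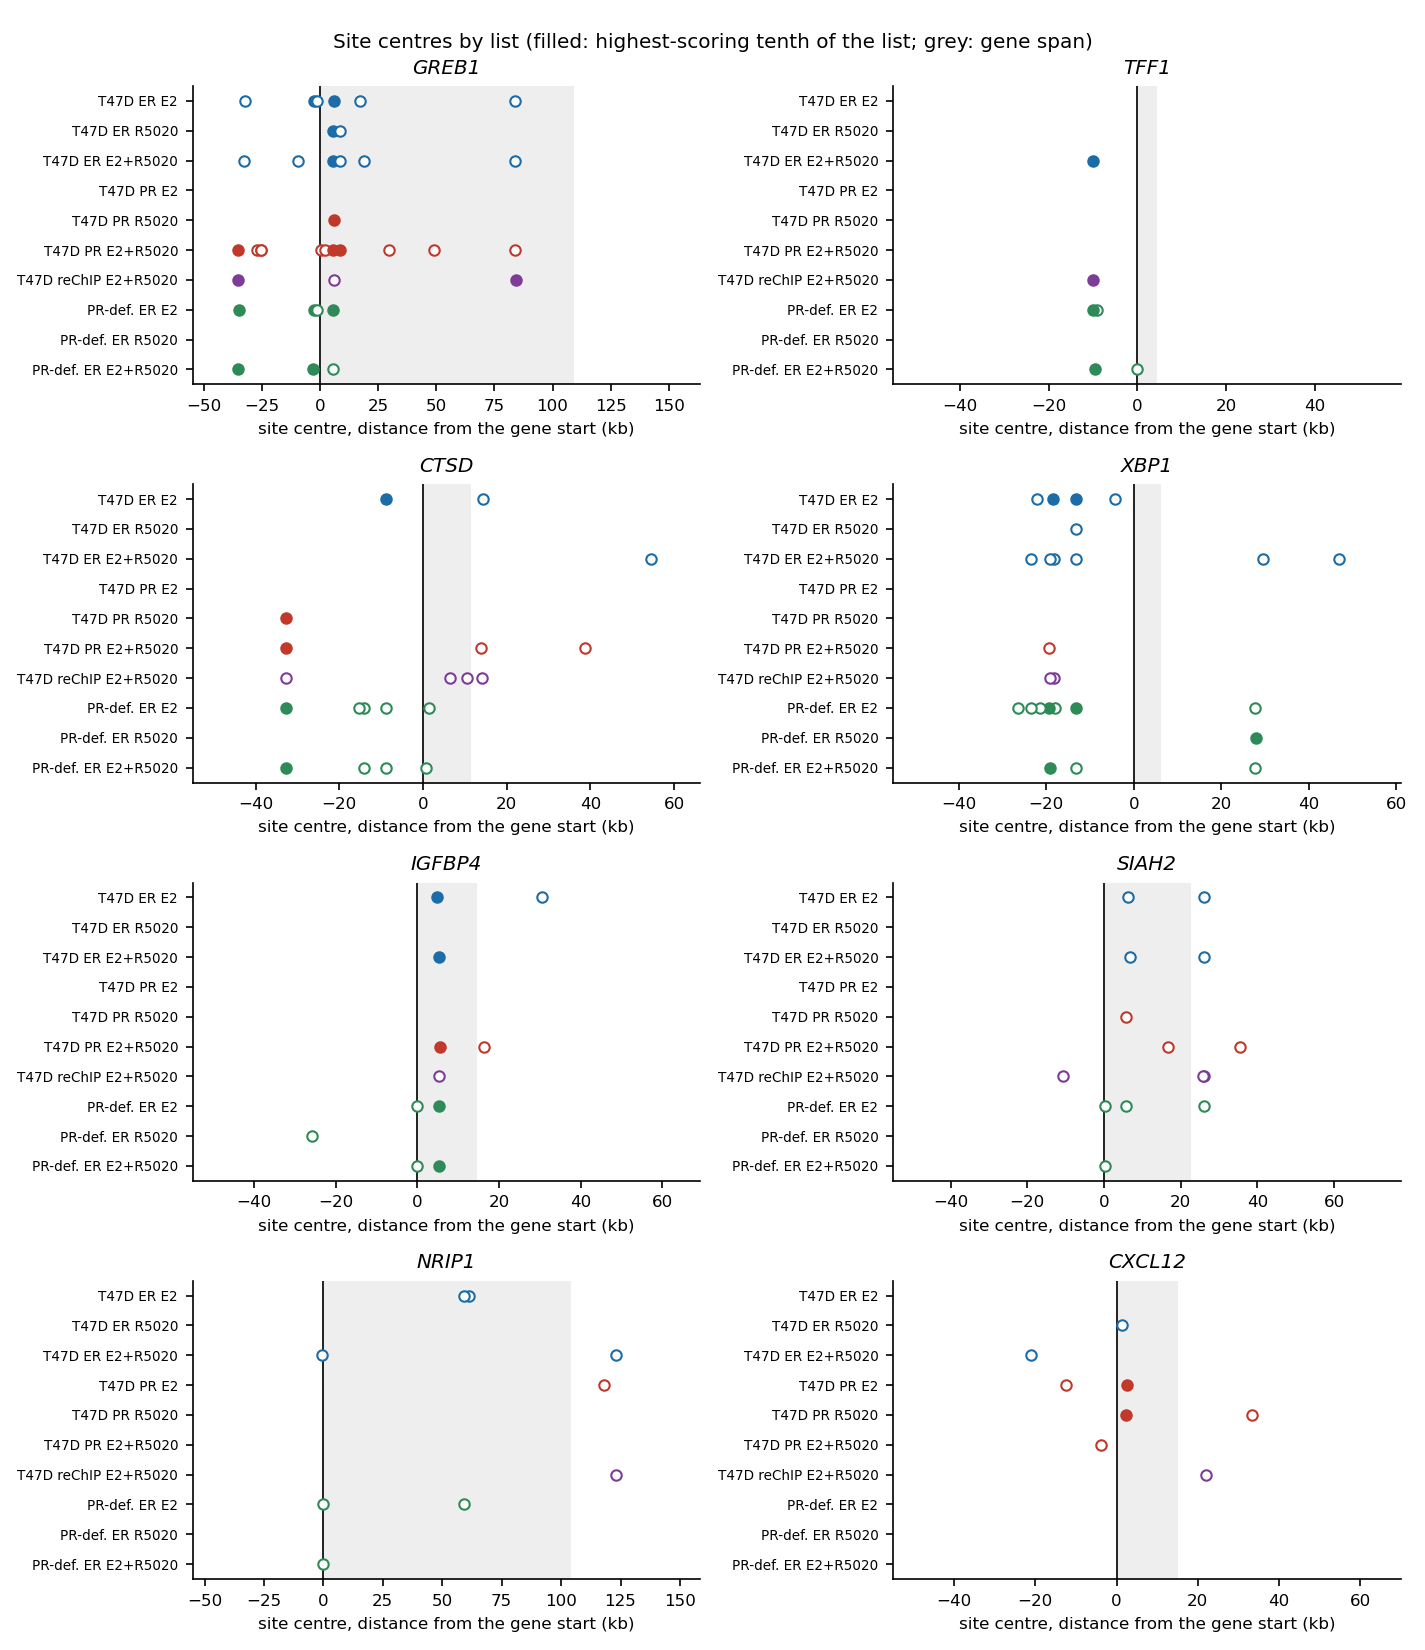
Centre of every member site by its distance from the gene start (kb, negative upstream), 1 panel per gene and 1 row per list, with the gene span in grey. Filled points reached the score that 10% of the list reach (ties raise this share to between 10.0 and 38.2% of a list), such as the points of 4 lists at GREB1 near -35 kb.

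GREB1, an early ER target whose product is an ER partner, had 36 sites in 8 of the 10 lists. Its window was the longest, and at 17.3 sites per 100 kb it was below XBP1 (23.6) and CTSD (18.0). One region inside the gene, at 5.7 kb (chr2:11679185-11680688), was held by 8 lists, the most of any region at these genes. The T47D ER site there ranked 53 of 4014 with E2, 81 of 5338 with R5020 and 162 of 19220 with E2+R5020. The PR site ranked 159 of 11908 with E2+R5020 and 616 of 6358 with R5020, and the reChIP site 1799 of 9861. In PR-deficient cells it ranked 316 of 7742 with E2 and 989 of 5663 with E2+R5020, and the R5020 list held no site in the GREB1 window. The centres of the 8 sites lay within 197 bp of each other, although widths ran from 260 bp (PR with R5020) to 1454 bp (T47D ER with E2).

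Well upstream of GREB1 the ER lists of the lines parted. At -35.3 kb (chr2:11638421-11639547) a site was listed by both estradiol-containing ER lists of PR-deficient cells, at rank 50 of 7742 with E2 and 31 of 5663 with E2+R5020. The reChIP list held the same place at rank 45 of 9861, its highest-ranked member site, and the PR list of E2+R5020 at rank 240 of 11908. None of the 3 T47D ER lists held a site there. The T47D ER lists held a place nearer the gene instead, at -32.7 kb, with E2 (rank 978) and with E2+R5020 (rank 17387). Near the start, at -2.9 kb, E2 gave ER sites in T47D (rank 80 of 4014) and PR-deficient cells (rank 391 of 7742), and E2+R5020 gave one in PR-deficient cells (rank 320 of 5663). At 8.5 kb the T47D ER lists of R5020 and of E2+R5020 shared a site with PR under E2+R5020 that neither E2 list of ER held. Deep in the gene, at 84.0 kb, T47D ER with E2 and with E2+R5020, PR with E2+R5020 and the reChIP (rank 789 of 9861) coincided within 44 bp. The GRCh38 model of GREB1 spans 159901 bp against the 108673 bp used here, and where the added length lies was not compared.

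NRIP1, which encodes the corepressor RIP140, had 9 sites in 6 lists, the sparsest window at 4.42 per 100 kb. Inside the gene at 59.2 kb, E2 gave ER sites in T47D (rank 415 of 4014) and in PR-deficient cells (rank 2023 of 7742). T47D cells had a second E2 site of 873 bp next to it at 61.2 kb (rank 1571). The region across the start (chr21:16436325-16438460) was held by 3 lists: those of PR-deficient cells with E2 (rank 3561 of 7742) and with E2+R5020 (rank 2092 of 5663), and the T47D ER list of E2+R5020 (rank 17387 of 19220), whose site lay beside the start. Downstream, at 123.0 kb, the T47D ER list of E2+R5020 (rank 3459 of 19220) and the reChIP list (rank 2040 of 9861) shared a place. The PR lists of R5020 and of E2+R5020 had no site in the window, and that of E2 had 1, at 118.0 kb.

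TFF1, the trefoil peptide gene whose product is also known as pS2, had 6 sites in 4 lists and 5 of them lay near -10 kb (chr21:43795255-43797199). In PR-deficient cells this region ranked 203 of 7742 with E2 and 187 of 5663 with E2+R5020, and the E2 list divided it into 2 neighbouring sites, the second at rank 5435. The T47D ER list held it with E2+R5020 at rank 282 of 19220, and the reChIP list at rank 222 of 9861. The T47D ER list of E2 had no site in the window, its nearest being at -149.8 kb, and neither had any PR list. The one further site was the PR-deficient E2+R5020 site across the start, of 857 bp (rank 4152 of 5663). The window also covers neighbours of TFF1, among them TFF2 and TFF3 in GRCh38, so a site here cannot be given to 1 gene. The same holds for GREB1, CTSD, XBP1, IGFBP4 and SIAH2. Their GRCh38 windows cover other protein-coding genes, such as IFITM10 (CTSD), CCDC117 (XBP1) and TOP2A (IGFBP4). Those of NRIP1 and CXCL12 cover none. Distances of sites to the starts of these neighbours were not measured.

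IGFBP4 held one strong region at 4.9 kb inside the gene (chr17:38603032-38606071), listed by 6 of the 10 lists. It carried the highest-ranked T47D ER site with E2 of all member sites, at rank 11 of 4014. The PR-deficient sites there ranked 42 of 7742 with E2 and 69 of 5663 with E2+R5020. With E2+R5020 in T47D, ER ranked 1114 of 19220, PR 923 of 11908 and the reChIP 1799 of 9861. The 3 wide sites measured 2879, 1638 and 2082 bp, and the other 3 measured 429 to 516 bp and lay wholly inside them. Across the start, PR-deficient cells had a site of 2053 bp with E2 (rank 3728 of 7742) and of 2010 bp with E2+R5020 (rank 2256 of 5663). The single R5020 site of PR-deficient cells was at -25.8 kb (rank 4378 of 9141).

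CXCL12, the chemokine that binds CXCR4, had 8 regions, each held by 1 list, as were 80.4% of the regions of the whole series. Its 8 sites came from 6 lists: 2 each from PR with E2 and PR with R5020, and 1 each from PR with E2+R5020, T47D ER with R5020, T47D ER with E2+R5020 and the reChIP. Just inside the gene lay the PR site with E2 at 2.6 kb (rank 455 of 7961), the PR site with R5020 at 2.2 kb (rank 616 of 6358) and the ER site with R5020 at 1.3 kb (rank 912 of 5338). These were neighbours and did not overlap. Neither E2 list of ER, nor any list of PR-deficient cells, had a site in the window. The label of an estrogen target locus thus had no ER site of E2 alone behind it at CXCL12 within 50 kb, and 1 low-ranked T47D ER site of E2+R5020, at -20.9 kb (rank 13384 of 19220).

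CTSD, the cathepsin D gene, had 20 sites in 7 lists. At -32.7 kb (chr11:1817186-1818617) lay the highest-ranked member sites of the study, at rank 5 of 7742 with E2 and rank 6 of 5663 with E2+R5020 in PR-deficient cells. The PR lists held the same place with R5020 (rank 181 of 6358) and with E2+R5020 (rank 159 of 11908), and the reChIP list at rank 1175 of 9861. The 3 T47D ER lists held no site there. The centres of the 5 sites lay within 71 bp. At -8.8 kb, E2 gave ER sites in T47D (rank 402 of 4014) and in PR-deficient cells (rank 1157 of 7742), and E2+R5020 gave one in the latter (rank 1951 of 5663). A T47D ER site of 3837 bp with E2 downstream of the gene, at 14.4 kb, was the widest of all member sites and ranked 3397 of 4014. It enclosed a PR site of E2+R5020 and a reChIP site. Near the start, PR-deficient cells had a site of 1739 bp at 1.4 kb with E2 (rank 844 of 7742) and one of 2625 bp at 0.6 kb with E2+R5020 (rank 1137 of 5663).

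XBP1 had the densest window, with 25 sites in 8 lists, 20 of them upstream. At -13.3 kb (chr22:29209022-29210620), ER was listed in T47D with E2 (rank 198 of 4014), R5020 (rank 2868 of 5338) and E2+R5020 (rank 9503 of 19220), and in PR-deficient cells with E2 (rank 286 of 7742) and E2+R5020 (rank 1298 of 5663). The PR and reChIP lists held no site in that region. At -18.6 kb (chr22:29213749-29216547) 6 lists shared a region. A single T47D ER site of 2667 bp with E2 (rank 84 of 4014) there met a pair of sites each in the T47D ER list of E2+R5020, the reChIP list and the PR-deficient E2 list. The PR list of E2+R5020 (rank 2562 of 11908) and the PR-deficient ER list of E2+R5020 (rank 176 of 5663) each had 1 of these places. At 27.7 kb, downstream of the gene, a region was held by all 3 lists of PR-deficient cells and by no T47D list. It included 1 of the 2 R5020 sites that these cells had at any of the 8 genes (rank 669 of 9141).

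SIAH2, which encodes a ubiquitin ligase, had 14 sites in 7 lists and a highest rank of 961 of 7742, for the PR-deficient ER site of E2 at 26.0 kb. That region (chr3:150454753-150455778) was also held by T47D ER with E2 (rank 1079 of 4014) and with E2+R5020 (rank 13384 of 19220) and by the reChIP list as a pair of sites. A region inside the gene at 6.2 kb held a T47D ER site of 2038 bp with E2 (rank 1571 of 4014). Within it lay an ER site of E2+R5020, a PR site of R5020 and a PR-deficient ER site of E2. Across the start, PR-deficient cells had a site of 2023 bp with E2 (rank 5058 of 7742) and of 2502 bp with E2+R5020 (rank 3230 of 5663).

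**Figure D3:**
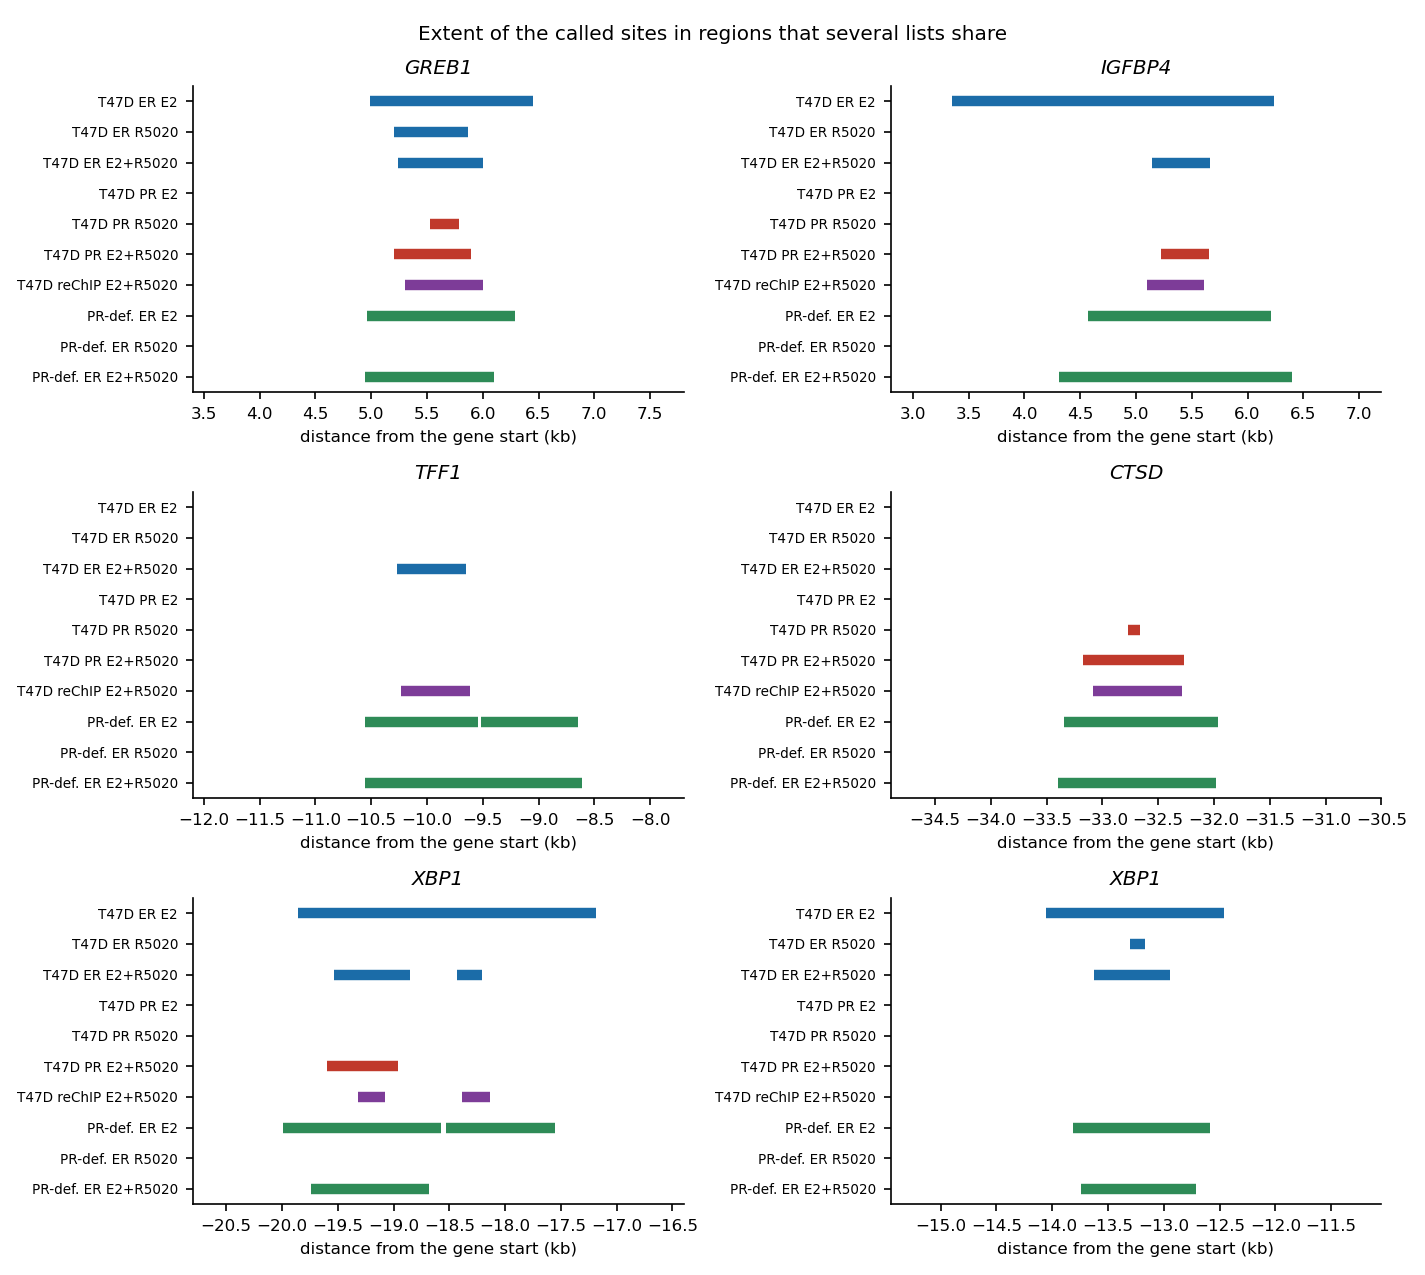
Extent of the called sites (bars, to scale) around 6 regions shared by several lists, as distance from the gene start (kb), 1 row per list. The CTSD region at -32.7 kb has bars in the PR, reChIP and PR-deficient rows and none in the 3 T47D ER rows.

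Overlapping sites of all lists were joined into 61 regions at the 8 genes. Of these, 25 (41.0%) were held by 2 or more lists and 17 (27.9%) by 3 or more, against 19.6% and 7.95% of the 64490 regions of the whole series. Of the 36 regions held by 1 list, 12 belonged to the PR list of E2+R5020: 7 at GREB1, 2 at SIAH2 and 1 each at CTSD, IGFBP4 and CXCL12. That list is long, at 11908 sites. Its share of such regions over the whole series was not counted, so the 12 cannot be read as particular to these genes. Regions held by 3 or more lists occurred at every gene but CXCL12, with 5 at GREB1, 4 at XBP1, 3 at CTSD, 2 at SIAH2 and 1 each at TFF1, IGFBP4 and NRIP1.

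The same estradiol ER sites recurred across the lines in part. Of the 18 T47D sites with E2, 11 (61.1%, exact Clopper-Pearson 95% interval 35.7 to 82.7) overlapped a PR-deficient E2 site, against 54.9% of the whole list. The reverse share was 13 of 25 (52.0%, 31.3 to 72.2) against 29%. The shared T47D sites had a median rank 10.0% down the list and the 7 others 76.6%. In the PR-deficient list these medians were 12.4 and 47.1%. The same split was not made over the whole lists, so it cannot be read as a trait of these genes. The 12 PR-deficient sites without a T47D partner included 4 at CTSD, 2 at TFF1, 2 at XBP1 and 1 each at GREB1, IGFBP4, SIAH2 and NRIP1. Among them were the sites ranked 5 (CTSD), 50 (GREB1) and 203 (TFF1) of 7742.

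Some E2 sites were also listed when R5020 was added to E2. In T47D, 9 of the 18 (interval 26.0 to 74.0%) overlapped an ER site of E2+R5020 (whole list 19.5%), and 2 (11.1%, 1.38 to 34.7) one of R5020 (6.35%). Those 2 were at GREB1 and XBP1. In PR-deficient cells, 16 of 25 E2 sites (64.0%, 42.5 to 82.0) overlapped an E2+R5020 site (55.5%), and 15 of the 16 E2+R5020 sites overlapped an E2 site (75.4%). The exception was the TFF1 site across the start. Of the PR-deficient E2 sites, 9 (36.0%, 18.0 to 57.5) overlapped a T47D ER site of E2+R5020 (12.9%). Intervals cover counting error over sites only, and sites at 1 gene are not independent. The counts rest in part on XBP1: without it, 8 PR-deficient E2 sites and not 13 overlapped a T47D E2 site, and 5 and not 9 a T47D ER site of E2+R5020. Where 50% of both sites had to overlap, 1 and not 9 T47D E2 sites overlapped an ER site of E2+R5020. Median member widths were 1135 bp with E2 and 360.5 bp with E2+R5020. A narrow site inside a wide one can thus fail that rule on width alone. With centres within 200 bp, 6 of the 9 remained.

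**Figure D4:**
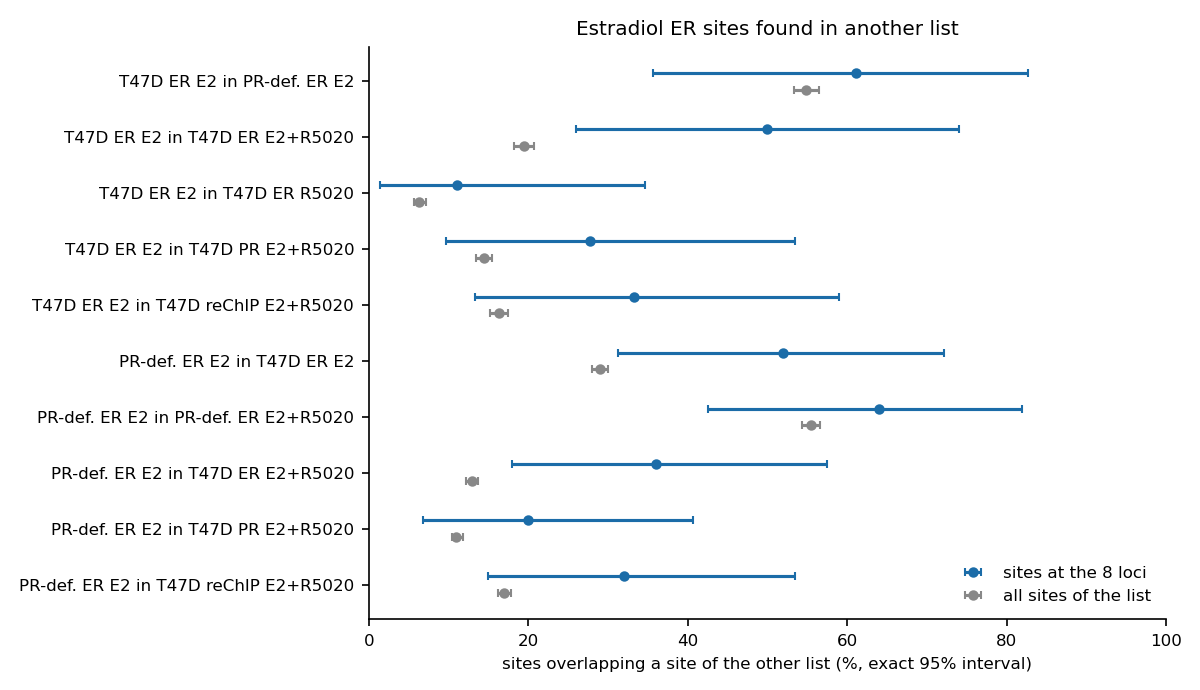
Share of estradiol ER sites that overlap a site of another list (%), for the member sites (blue) and for the whole list (grey), with exact 95% intervals. The share of PR-deficient E2 sites found in the T47D ER list of E2+R5020 is 36.0% for member sites against 12.9%, and that of T47D E2 sites found in PR-deficient cells with E2 is 61.1% against 54.9%.

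PR and reChIP sites coincided with ER sites at several of these genes. Of the T47D E2 sites of ER, 5 of 18 (27.8%, 9.69 to 53.5) overlapped a PR site of E2+R5020 (14.4%) and 6 (33.3%, 13.3 to 59.0) a reChIP site (16.3%). Of the PR-deficient E2 sites, 5 of 25 (interval 6.83 to 40.7%) overlapped a PR site of E2+R5020 in T47D (11%) and 8 (32.0%, 14.9 to 53.5) a reChIP site (17%). Of the 20 PR sites with E2+R5020, 5 overlapped an ER site of the same treatment (8.07% of the whole list), at 3 genes. Of the 16 reChIP sites, 9 overlapped a T47D ER site of E2+R5020 (19.5%), 7 a PR site of E2+R5020 (12.2%) and 9 an ER site of PR-deficient cells with E2 (15.6%). The reChIP places at GREB1 -35.3 kb and CTSD -32.7 kb had a PR site and no T47D ER site, and that at TFF1 had an ER site and no PR site. The 3 PR sites with E2 overlapped no site of any other list, and of the whole list 1.26 to 12.2% overlapped a site of any one other list.

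**Figure D5:**
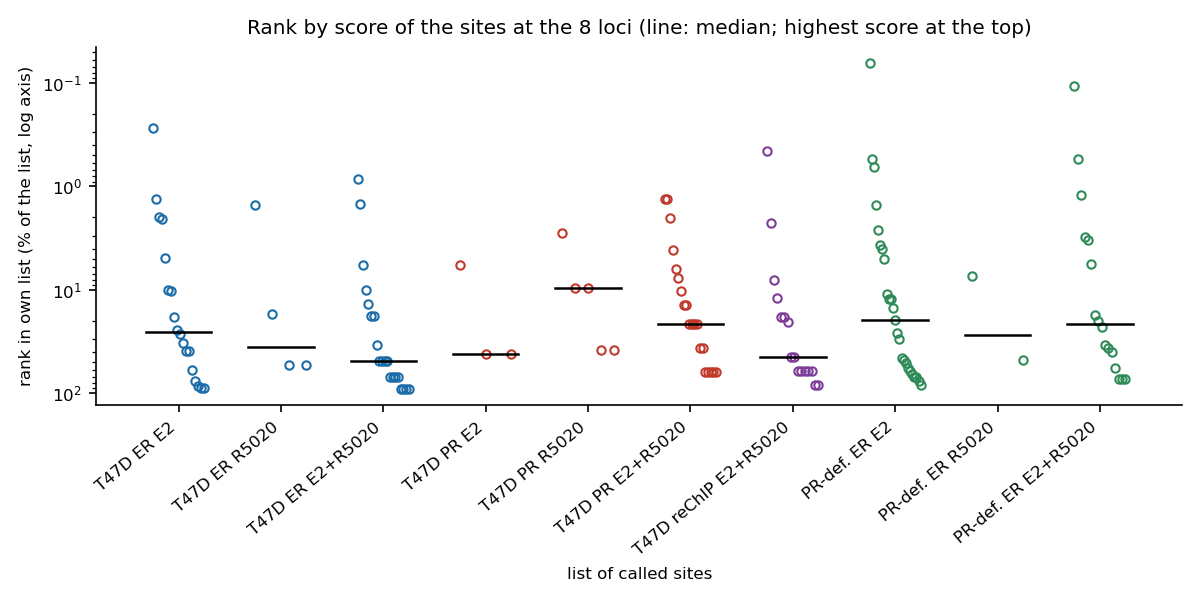
Rank by score of each member site in its own list (% of the list, log axis, highest score at the top), 1 column per list, with the median as a line. The highest points are the CTSD sites of PR-deficient cells, at rank 5 with E2 and rank 6 with E2+R5020.

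By rank, the median member site stood above the median of the whole list in some lists and not in others. In the T47D ER list of E2, 6 of 18 were among the highest-scoring sites (the score that 10% of the list reach, 10.2% with ties), and the median member ranked 25.6% down the list against 48.9% for all sites. In PR-deficient cells the counts were 8 of 25 with E2 (10%) and 6 of 16 with E2+R5020 (10.1%). The medians were 19.4% against 48.2% and 21.5% against 46.6%. For PR with E2+R5020 the count was 6 of 20 (10.2%). It was 3 of 20 for T47D ER with E2+R5020 (10.1%), where the median member was at 49.4% as in the whole list, and 3 of 16 for the reChIP (10.2%), where it was at 44.6% in both. For PR with E2, on 3 sites, the median member was at 41.5%, as in the whole list. For PR with R5020, on 5 sites, it was at 9.69% against 38.2%, for T47D ER with R5020, on 4 sites, at 35.4% against 29.2%, and for PR-deficient ER with R5020, on 2 sites, at 27.6% against 47.9%. For PR with E2+R5020 it was at 21.5% against 36.3%. Member sites were about as wide as the rest of their list with E2 (median 1135 against 1171 bp in T47D) and wider in the T47D ER list of E2+R5020 (360.5 against 209 bp).

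By presence or absence of a site in the 10 lists, CTSD and SIAH2 were alike in all 10. GREB1 matched each of them in 9, and XBP1 matched IGFBP4 in 9. CXCL12 was least like the rest, matching IGFBP4 in 3 lists and GREB1 in 6. A single site decides presence, so this likeness is coarse.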

How the data were processed

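Deposited lists of called sites from 10 ChIP-seq libraries were used, each the single library of its group. The series holds 26 samples in 26 groups, and the 16 without a list (inputs, vehicle and IgG controls) entered no comparison. The tools named in the submitters' processing notes are Bowtie2 and MACS, with the build hg19. Their versions and settings are not given in the sources used here. Vehicle was subtracted by the authors, and for the reChIP also IgG, per the labels, which do not describe how. The deposited columns are chromosome, start, end, length and score. Length equals end minus start plus 1, so positions count from 1. The score is the authors' value, of unstated unit.

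Sites overlapping the 8 spans with 50 kb flanks were taken with pandas 2.3.3 and NumPy 2.4.6 in Python 3.11.15. Intervals came from SciPy 1.17.1 and plots from matplotlib 3.10.9. Overlap means 1 bp or more. Background bins of 114627 bp, the median window, ran from the first to the last site of each chromosome (26266 bins). Strands came from the RefSeq promoter table, and for GREB1 and TFF1 from general knowledge. Counting was tested on simulated lists. The rule for named sites was the highest-scoring site of each list at each gene and the regions held by 3 or more lists. Sites across or near a start and other sites outside that rule were chosen after their values were seen. Members and lists were chosen with earlier results of these data known. Alternatives were flanks of 20 and 100 kb, site centres, higher score thresholds, lists of equal length, merging within 500 bp, sites of 200 bp, centres within 200 bp and overlap of 50% of both sites. Leaving out GREB1, counting sites with their centre within 1 kb of a start and counting regions in 3 or more lists were added after seeing the data. Motif counts in the sites, and other estrogen-responsive genes, had been planned for an hg19 genome and annotation, which are not used here.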

Additional observations from a re-analysis of the deposited data

Results flagged for a closer look

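With R5020 added to E2, the number of ER sites at the 8 genes went from 18 to 20 in T47D cells, a difference of 2, and from 25 to 16 in PR-deficient cells, a difference of -9. The opposite directions drew attention to this, and they depend on the settings. With a flank of 20 kb the T47D count went from 16 to 14 and the PR-deficient count from 19 to 13. At equal list lengths they went from 18 to 7 and from 17 to 13, and in the higher-scoring 50% of each list from 13 to 10 and from 17 to 12, so that both fell. Each number comes from 1 library and the difference between the lines was not tested. The whole lists moved the same ways, from 4014 to 19220 sites and from 7742 to 5663.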

How the results depend on the processing

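No paired analysis was possible because every group consists of a single library. Depth is unknown, so a missing site cannot be told apart from a site under the calling threshold, and lists of few member sites move most. Of 80 alternative counts of sites per list 56 stayed within 1.5 times, of 70 counts of genes 58, of 70 overlap counts 51, and all 6 counts of regions held by 2 or more lists. The causes of the following moves were not tested beyond what each alternative removes or adds. The share of bins with a site, 10.7 to 38.2% over the 10 lists, was 16.2 to 55.6% for bins of 209 kb and 17.4 to 62.3% among bins that hold a site of any list, and it rose in all 10 lists under both. With a flank of 100 kb, sites went to 7 (T47D ER R5020), 31 (T47D ER E2+R5020), 9 (PR E2, at 6 genes), 9 (PR R5020), 26 (reChIP) and 5 (PR-deficient ER R5020), and regions in 3 or more lists from 17 to 26. With 20 kb, PR-deficient ER R5020 held 0 sites at 0 genes, and 3 PR-deficient E2 sites overlapped PR E2+R5020. In the higher-scoring part of each list (50%), sites went to 2 (T47D ER R5020), 10 at 5 genes (T47D ER E2+R5020), 1 at 1 gene (PR E2), 3 (PR R5020), 7 at 5 genes (reChIP) and 1 at 1 gene (PR-deficient ER R5020), and regions in 3 or more lists to 10. At equal list lengths they were 7 at 5 genes (T47D ER E2+R5020), 1 at 1 (PR E2), 3 (PR R5020), 13 (PR E2+R5020), 7 at 5 (reChIP) and 1 at 1 (PR-deficient ER R5020). After dropping the lowest score step of each list (1 step), they were 2 (T47D ER R5020), 1 at 1 gene (PR E2) and 1 at 1 gene (PR-deficient ER R5020), and 1 T47D E2 site overlapped T47D ER R5020. Without GREB1, chosen after seeing the data, T47D ER R5020 held 2 sites and PR E2+R5020 9. With centres within 200 bp, T47D E2 sites shared 7 with PR-deficient E2, 2 with PR E2+R5020 and 3 with the reChIP, and PR-deficient E2 sites 7 with T47D E2. With 50% of both sites overlapping, T47D E2 sites shared 1 with T47D ER E2+R5020, 0 with T47D ER R5020, 0 with PR E2+R5020 and 1 with the reChIP. PR-deficient E2 sites then shared 8 with T47D E2, 4 with T47D ER E2+R5020, 3 with PR E2+R5020 and 4 with the reChIP. A narrow site inside a wide one can fail this rule on width alone. Leaving out 1 gene at a time, the lowest T47D E2 counts were 1 (T47D ER R5020) and 3 (PR E2+R5020), and the lowest PR-deficient E2 counts 8 (T47D E2), 5 (T47D ER E2+R5020) and 3 (PR E2+R5020). With centres within 1 kb of a start, added after seeing the data, T47D ER E2+R5020 and PR E2+R5020 each had 1 site there and not 0.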

Other observations

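Beyond the windows, the nearest E2 ER site to CXCL12 was the same place in both lines. It lay at -88.2 kb in T47D (chr10:44968327-44969218, rank 3230 of 4014) and in PR-deficient cells with E2 (rank 1821 of 7742), and at -88.1 kb with E2+R5020 (rank 2256 of 5663). A flank of 100 kb includes it. For CTSD, the T47D ER site with R5020 nearest to the gene was at -63.4 kb and ranked 192 of 5338, and the PR site with E2 at -63.6 kb overlapped it. For NRIP1, the R5020 ER lists of T47D and of PR-deficient cells had their nearest site at the same place, -220.3 kb, ranked 133 of 5338 and 669 of 9141.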
